A study of Mus musculus with 4 samples.

Results

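Some rows of the deposited table name a gene that the counted RNA region does not touch, and these regions are the subject here. The table gives each region an overlapped gene, or a dot where there is none, and beside it a listed gene with its position and strand. A region was taken as not overlapping its listed gene where no row of it had the listed symbol among its overlapped genes. That held for 250 of 558 distinct regions, of which 65 overlapped no gene and 185 overlapped another gene. The remaining 308 regions overlapped the gene they were listed with. The rule used gene names alone and no difference between the groups. The data are RNA from whole hearts of C57BL/6 mice, pulled down with an antibody against ac4C (N4-acetylcytidine) and sequenced. There were 2 libraries from NAT10 knockout hearts and 2 from control hearts, and every mouse carried the treatment label HFD+STZ+Exercise in a series about diabetic cardiomyopathy. No part of that treatment label differs between the groups. The labels give no knockout allele, promoter or cell type in which NAT10 was removed, and do not say whether each library is a separate animal. Nat10 itself and libraries without pulldown were not analysed here, so the labels have no check from the targeted gene, and RNA abundance and acetylation cannot be told apart.

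N4-acetylcytidine is an acetylated form of the RNA base cytidine, and NAT10 is the enzyme that makes it. It is best known in ribosomal and transfer RNA and has also been mapped in messenger RNA. A count that is credited to a listed gene can mislead where the reads lie in a neighbour: microRNA genes sit in introns of larger host genes, antisense genes lie across them, and many predicted genes are processed pseudogenes of a gene elsewhere. Regions outside every annotated gene can hold repeats, unannotated transcripts or extended ends of genes. The positions of the regions themselves are not used here, so where a region lies is known only from these gene names.

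Of the 250 regions, 27 were listed with 12 microRNA genes that they did not overlap, and RefSeq sequences on GRCm38.p6 were at hand for 8 of these genes. The sequences below are those of the listed microRNAs that the results turn on, to show which short RNA each name stands for; they are not sequences of the counted regions. Capitals mark the seed, bases 2 to 8 from the 5′ end, which pairs with target messenger RNAs. Mir208a lies within the myosin gene Myh6 and is known as a heart muscle microRNA, Mir101c is listed with 9 regions that overlap no gene, and Mir7019 lies within the mitophagy kinase gene Pink1.
mmu-miR-208a-5p: gAGCUUUUggcccggguuauac
mmu-miR-208a-3p: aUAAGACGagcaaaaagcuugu
mmu-miR-101c: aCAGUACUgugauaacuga
mmu-miR-7019-5p: aUCUGGGAggggcugucaggagu
mmu-miR-7019-3p: uCACCUUGgccgccucucugcag
In RefSeq's GRCm38.p6 these lie on the minus strand at chr14:54949107-54949128, chr14:54949072-54949093, chr9:3038680-3038698, chr4:138316173-138316195 and chr4:138316132-138316154, in the order given. The 15 mature sequences at hand had 15 different seeds, so no pair of them shares a seed.

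The 250 regions named 206 listed genes, and the kind of gene differed by class. Predicted genes (Gm symbols) made up 48.1% of the 52 listed genes of regions without an overlapped gene and 50.6% of the 154 listed genes of regions over another gene, against 25.4% of the 248 listed genes that were overlapped. Among regions over another gene, 47 listed genes were annotated as protein-coding, 22 as antisense, 13 as processed pseudogenes and 9 as microRNAs, and 27 were not found in the GENCODE M21 annotation of GRCm38. Among regions with no gene, 21 listed genes were protein-coding and 11 were processed pseudogenes. GENCODE M21 holds 127 of the 154 and 43 of the 52 listed genes. The table's span was as long as the annotated gene for 92 and 28 of these, while 1 and 2 had the same start in both sources. The table does not name its build, so its positions are printed as it gives them and are not mixed with those of GENCODE M21.

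How the listed gene lies to the overlapped gene could be read in GENCODE M21 for 130 distinct gene pairs, which come from 156 of the 185 regions. In 73 pairs the genes lay apart, 48 of them on the same strand. In 43 pairs the listed gene lay inside the overlapped gene, 25 on the same strand and 18 on the opposite strand. A further 13 overlapped in part, 12 of them on opposite strands, and 1 overlapped gene lay inside its listed gene. Of the 9 pairs with a microRNA gene, 8 were nested and 1 lay apart. Mir208a lay inside Myh6, which encodes the main cardiac myosin heavy chain of the adult mouse. The antisense gene Gm13938 lay inside Ttn, which encodes titin, and Gm15632 inside Oxct1, which encodes the enzyme that activates ketone bodies.

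The pairs that lay apart shared a direction. In 73 of 73 the start of the listed gene was nearer to the 3′ end of the overlapped gene than to its 5′ end. These were 48 pairs on the same strand and 25 on opposite strands. How the table chose the listed gene is not given. A choice by nearest gene start would fix this outcome in advance, so it is not read as a trait of the pairs. The distance between the genes ran from 123 to 64855 bases, with a median of 7127. The pseudogene Gm15846, for example, lies 14598 bases from Atp2a2, the gene of the cardiac calcium pump, and Limd1 lies 16040 bases from Lars2, which encodes mitochondrial leucyl-tRNA synthetase. Where the listed gene lay inside the overlapped gene, 26 of 43 had their start nearer to its 3′ end.

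**Figure D1:**
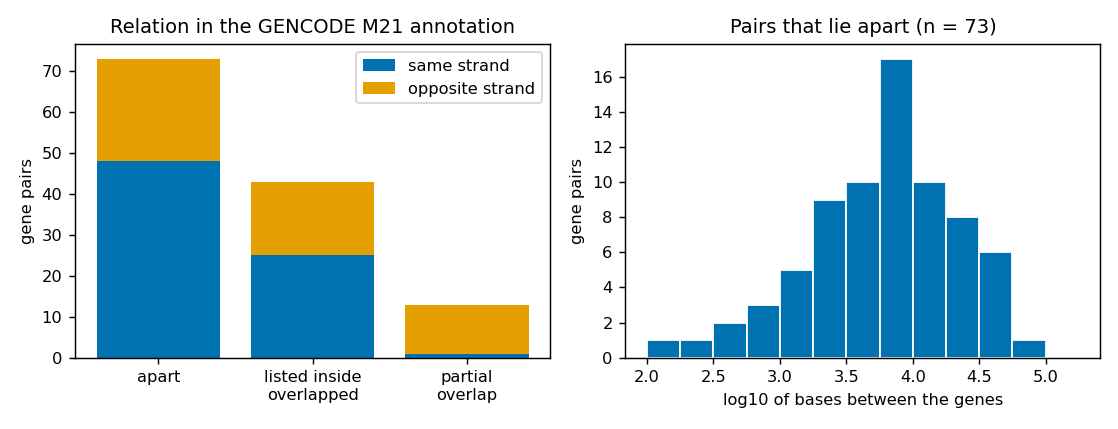
Relation of listed and overlapped gene in GENCODE M21. Left, number of gene pairs that lie apart, nested or in partial overlap, by strand; right, bases between the 73 pairs that lie apart on a log10 scale, which run from 123 to 64855.

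Regions without an overlapped gene were few and abundant. They held 22.2% and 23.9% of the table's counts in the knockout libraries, and 24.6% and 23.4% in the control libraries. Regions over another gene held 12.4% and 10.8% in the knockout libraries, and 10.9% and 11.7% in the control libraries. In each class the libraries of the groups overlapped. Together the 250 regions held 34.7% and 34.7% in knockout, and 35.5% and 35.1% in control, with both knockout libraries below both controls. The regions over their listed gene held the rest, 65.3% and 65.3% in knockout, and 64.5% and 64.9% in control (exact permutation p = 0.333). The mean share of regions without a gene was 23.1% ± 1.18 in knockout and 24.0% ± 0.81 in control (SD, n = 2 each), with an exact two-sided permutation p of 0.667. That difference of -0.94 percentage points ranged from -1.77 without knockout replicate 2 to -0.11 without knockout replicate 1, and was -1.92 with the 18S and mitochondrial rRNA regions left out of the counts. For regions over another gene the mean share was 11.6% ± 1.18 in knockout and 11.3% ± 0.525 in control (SD, n = 2 each; exact permutation p = 1). With 2 libraries a group the smallest p that this test can give is 0.333. The difference of knockout from control for regions over another gene was 0.32 percentage points, and it was -0.51 without knockout replicate 1 and -0.05 without control replicate 1.

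**Figure D2:**
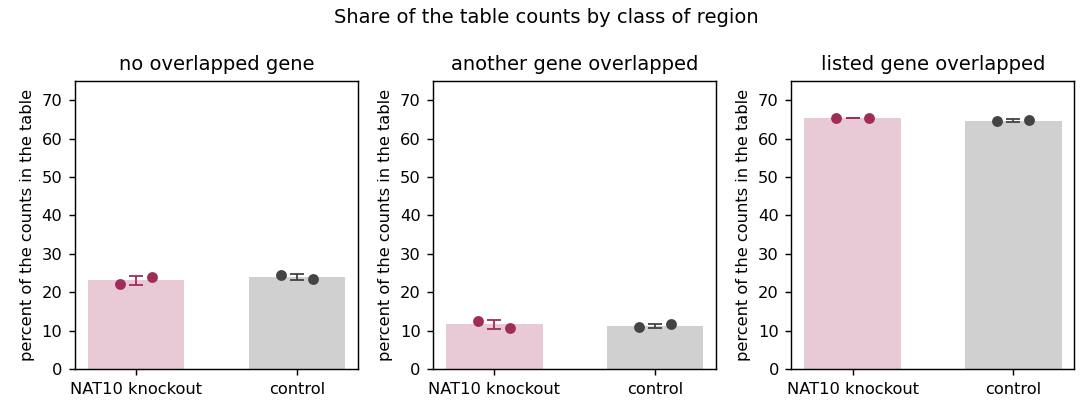
Percent of all counts in the table held by each class of region, in NAT10 knockout and control hearts; points are libraries, bars their mean and error bars the SD. Regions without an overlapped gene held 22.2% to 24.6% in every library.

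The counts in the table summed to 920818 and 693922 in the knockout libraries and to 674687 and 686323 in the control libraries. The median count of a region without a gene was 511 and 407 in knockout and 341 and 292 in control. A region over another gene had a median of 111 and 56 in knockout, and 58 and 65 in control. The heart label could be checked, since regions overlapped 8 of 10 cardiomyocyte markers (8.25% to 10.2% of counts in knockout, 7.88% to 8.61% in control). Tnnt2 was in the table only as a listed gene. Of the markers listed for other cells and tissues, Hba-a2, Cd74 and Ckm were overlapped and none of the 3 endothelial, 3 fibroblast, 2 adipocyte or 1 lung markers. Ckm was listed for skeletal muscle but does not tell it from heart muscle. Fewer cells of a type and less RNA per cell cannot be told apart in whole hearts.

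Among the 65 regions without a gene, a handful carried most of the counts. The region listed with the predicted gene Gm11668 on chromosome 11 had 50364 and 42709 counts in knockout, and 43655 and 41992 in control. The region listed with Gm15739 on chromosome 5 had 36683 and 31066 counts in knockout, and 31873 and 31461 in control. Gm55270 on chromosome 3 had 21354 and 17805 counts in knockout, and 18596 and 18091 in control. These 3 made up 52.9% and 55.2% of the class's counts in knockout, and 56.7% and 56.9% in control.

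Several abundant regions kept close to a fixed proportion of each other in every library. The Gm15739 region stood at 72.8% and 72.7% of the Gm11668 count in knockout, and at 73.0% and 74.9% in control, a coefficient of variation of 1.41% over the 4 libraries. That coefficient was 1.36% for Gm55270 and 2.61% for Gm2651, which also overlap no gene. It was 2.48% for the region over Lars2, 2.43% for that over Il1rapl1, a synaptic adhesion receptor gene, 2.41% for that over Camk1d, a calmodulin-dependent kinase gene, and 2.84% for that over Jarid2, a cofactor of Polycomb repression. The 18S ribosomal RNA region Rn18s-rs5, which overlaps its listed gene, varied by 3.02% against Gm11668. Between these and the most variable regions lay the mitochondrial rRNA region listed with mt-Tl1 (6.11%) and the Sp3 region, which overlaps no gene (6.25%). The region over Malat1, a nuclear long noncoding RNA listed with Gm55521, varied by 15.9%, the most abundant Myh6 region by 15.5% and the Gm13806 region by 25.9%. These coefficients describe 4 libraries and were not tested.

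The abundant regions with fixed proportions did not pass the test between groups, and their level split the knockout libraries. As CPM over the table after TMM scaling, which are the normalised counts used below, Gm11668 stood at 46166 and 66962 in knockout and 70514 and 61136 in control. Knockout replicate 1 lay below both controls and knockout replicate 2 between them. The fitted log2 fold change, knockout over control, stood at -0.22 ± 0.29 (SE; edgeR adjusted p = 0.713). Sp3 encodes a zinc finger transcription factor and is listed with a region outside any gene, whose proportion to Gm11668 varied more (6.25%). This region had 7114 and 10434 normalised counts in knockout, and 12247 and 10482 in control. Both knockout libraries lay below both controls, knockout replicate 2 by a narrow gap (-0.37 ± 0.21, edgeR adjusted p = 0.353). Without knockout replicate 2 the regions of Sp3 (-0.68), Gm2651 (-0.54), Lars2 (-0.49), Camk1d (-0.46) and Jarid2 (-0.57) passed edgeR's test as lower.

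Of the 65 regions without a gene, 3 rose in knockout and 0 fell. The test was edgeR's quasi-likelihood test, adjusted by Benjamini-Hochberg over all 558 regions, of which 3.94% passed, 2.33% higher and 1.61% lower. At an unadjusted p below 0.05, which 19% of all regions reached (60 higher and 46 lower), 19 of the 65 were higher and 4 lower. The 19 include all 9 regions listed with Mir101c, which are not independent. The region listed with Gm18604, a predicted gene on chromosome 17 from 36540361 to 36540918 as the table gives positions, had 1704 and 2016 normalised counts in knockout, and 1337 and 1118 in control. It rose by 0.60 ± 0.13 on the log2 scale (edgeR adjusted p = 0.00293). The region listed with Gm9075, on chromosome 12 from 3132667 to 3137041, had 848 and 1049 in knockout, and 730 and 626 in control (0.48 ± 0.13, edgeR adjusted p = 0.0272). In both, every knockout library lay above every control library, as in 25.3% of all regions.

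The last of the 3 was listed with Coq10a, which encodes a coenzyme Q binding protein of mitochondria. It had 403 and 395 normalised counts in knockout, and 278 and 262 in control (0.57 ± 0.15, edgeR adjusted p = 0.0197). The other region outside any gene that was listed with Coq10a had 96.2 and 116 in knockout and 100.1 and 99.0 in control (0.08 ± 0.24). A region that overlaps Coq10a itself had 97.2 and 76.8 in knockout and 90.5 and 96.1 in control (-0.08 ± 0.26). The Coq10a call held only without control replicate 1 (edgeR adjusted p = 0.0146), among the fits without 1 library. The Gm9075 call ended without knockout replicate 2 (0.32 on the log2 scale, adjusted p = 0.240) and without control replicate 2 (0.37, adjusted p = 0.284). The Gm18604 call ended without control replicate 2 (0.47, adjusted p = 0.198). The count of regions without a gene past the test was 5 without knockout replicate 1, 7 without control replicate 1, 0 without control replicate 2 and 13 without knockout replicate 2, where 12 of the 13 were lower and 1 was among the 3 reported. It was 9, all higher, when only regions with a mean count of at least 50 were tested, and 0 with the DESeq2 Wald test, where 8 had an unadjusted p below 0.05.

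Mir101c was listed with 9 of the regions without a gene, more than any other gene. Its position in the table, on chromosome 9 from 3038669 to 3038743, is close to the start of the assembled chromosome. The most abundant of the 9 had 1744 and 2109 normalised counts in knockout, and 1673 and 1310 in control (0.37 ± 0.13, edgeR adjusted p = 0.121). The fifth had 371 and 464 in knockout, and 329 and 250 in control (0.52 ± 0.16, edgeR adjusted p = 0.0581). The fitted log2 fold changes of the 9 ran from 0.31 to 0.94 with a median of 0.51, and both knockout libraries lay above both controls in 8 of the 9, against 25.3% of all regions. Leaving out control replicate 2 gave the 9 a median of 0.32, leaving out control replicate 1 gave 0.70, and leaving out knockout replicate 2 gave 0.36 with a smallest value of 0.12. None of the 9 passed. With only regions of a mean count of at least 50, 6 of 8 passed, 3 of 9 passed without knockout replicate 1 and 3 without control replicate 1, and 0 without either of the other libraries. The 9 regions are not independent, since they share a listed gene and could share a source of reads.

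Gm56139 and Gm56141, predicted genes that the table places on chromosome 9 from 3263442 and 4271130, are also listed with regions outside any gene. Their fitted log2 fold changes were -0.21 ± 0.14 and -0.09 ± 0.19, and the groups overlapped in both. The regions listed with Gm13806 on chromosome 2 had 12267 and 14704 normalised counts in knockout, and 11665 and 9345 in control, for the more abundant (0.36 ± 0.21, edgeR adjusted p = 0.363). With library totals alone as scaling it stood at 0.48 and passed (adjusted p = 0.0196). The other stood at 655 and 829 in knockout and 640 and 524 in control (0.35 on the log2 scale, edgeR adjusted p = 0.146). Both knockout libraries lay above both controls in each.

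Some regions outside any gene were listed with known heart genes. Tnnt2, which encodes cardiac troponin T, was listed with 3 of them and overlapped by none of the 558 regions. They stood at 1498 and 1408 normalised counts in knockout against 1648 and 1497 in control, at 1287 and 1229 in knockout against 1719 and 1424 in control, and at 933 and 1123 in knockout against 995 and 795 in control. Their log2 fold changes were -0.11, -0.32 and 0.20, and the edgeR adjusted p was 0.13 or more. With upper-quartile factors the middle region passed as lower (-0.36, adjusted p = 0.0430). The middle region had both knockout libraries below both controls, and the others overlapped between groups.

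Myl3, a ventricular myosin light chain gene, and Tpm1, a tropomyosin gene, each had a region outside any gene and a region over the gene. The Myl3 region outside stood at 1094 and 1032 normalised counts in knockout and 885 and 949 in control (0.21 ± 0.12, edgeR adjusted p = 0.345), and the one over Myl3 at 0.67 ± 0.13 (adjusted p = 0.000776). The Tpm1 region outside stood at 2017 and 2277 in knockout and 2090 and 2041 in control (0.05 ± 0.13, edgeR adjusted p = 0.838). The region over Tpm1 was listed with Gm57052 and is given below. Whether the regions of each pair differ in change was not tested. Hadh, Pdhb, Prdx6 and Vdac3, genes of fatty acid oxidation, pyruvate dehydrogenase, peroxide removal and the mitochondrial outer membrane, were listed with 1 such region each, which had fitted values between -0.08 and 0.70 and did not pass. At the upper edge of the class without a gene, Zfp938, a zinc finger gene, was listed with a region of 44.0 and 37.6 normalised counts in knockout and 22.6 and 5.82 in control (1.55 ± 0.69, edgeR adjusted p = 0.209). The lowest fitted value was that of the region listed with ENSMUSG00000095041. It had 40.3 and 28.2 in knockout and 61.4 and 61.1 in control (-0.81 ± 0.43, edgeR adjusted p = 0.323). The region listed with Lamtor1 stood at -0.37 ± 0.50 (edgeR adjusted p = 0.714), and its groups overlapped.

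Of the 185 regions over another gene, 5 rose and 2 fell by edgeR's test, where all regions gave 2.33% higher and 1.61% lower. The share called was 3.78%, against 3.94% of all regions. The region over Oxct1, listed with the antisense gene Gm15632, had 594 and 629 normalised counts in knockout, and 307 and 370 in control (0.85 ± 0.14, edgeR adjusted p = 0.000112). The region over Chl1, a neural cell adhesion gene, was listed with Gm44436 and had 374 and 340 in knockout, and 197 and 213 in control (0.81 ± 0.16, edgeR adjusted p = 0.00138). The region over Tpm1 had 933 and 941 in knockout, and 588 and 603 in control (0.65 ± 0.12, edgeR adjusted p = 0.000776). In these 3 the groups did not overlap, as in 47.5% of all regions, and the test that chose them used the same values.

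The region listed with Mir9769 overlapped Lin37, a subunit of the cell cycle repressor complex DREAM, and Hspb6, a small heat shock protein gene. It had 566 and 517 normalised counts in knockout, and 317 and 381 in control (0.63 ± 0.14, edgeR adjusted p = 0.00378). The second most abundant of the 5 Atp2a2 regions listed with Gm15846 had 2204 and 2192 in knockout, and 1615 and 1596 in control (0.45 ± 0.12, edgeR adjusted p = 0.0272). The regions that fell overlapped Pam and Pink1. The Pam region, listed with the pseudogene Btf3-ps1, had 115 and 116 normalised counts in knockout, and 317 and 258 in control (-1.31 ± 0.19, edgeR adjusted p = 1.29e-05). Pam encodes the enzyme that amidates peptide hormones. The Pink1 region listed with Mir7019 had 147 and 89.4 in knockout, and 171 and 245 in control (-0.78 ± 0.22, edgeR adjusted p = 0.0389), with a narrow gap between the groups.

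The calls over Oxct1, Pam and Tpm1 stayed past the test in each fit without 1 library. The Chl1 call ended without knockout replicate 1 (edgeR adjusted p = 0.0973), and so did that of Hspb6 and Lin37 (0.105, and 0.0606 without control replicate 1). The Atp2a2 call ended without control replicate 1 (0.264) and without control replicate 2 (0.282). The Pink1 value was -1.22 without knockout replicate 1 (0.0106), -0.51 without knockout replicate 2 (0.362) and -0.50 without control replicate 2 (0.321). With the DESeq2 Wald test, 3 of these 7 regions passed, and with scaling to the library totals alone 2 did.

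**Figure D3:**
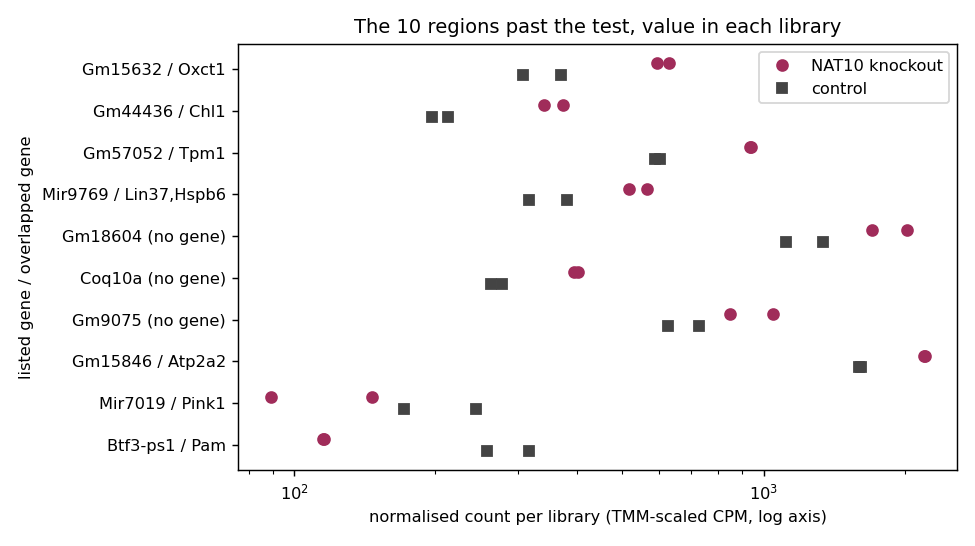
Normalised count of each library (TMM-scaled CPM, log axis) for the 10 regions past the test that do not overlap their listed gene, in NAT10 knockout and control hearts; rows give listed and overlapped gene. In every row the libraries of the groups do not overlap, which also held for 47.5% of all regions. The rows were chosen by the test on these same values, with 8 rows higher and 2 lower in knockout.

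Several heart genes had many such regions, and of these regions 1, over Atp2a2, passed, where 3.94% of all regions did. Myh6 was overlapped by 9 regions listed with another gene, 8 with Mir208a and 1 with the antisense gene Gm49130. The most abundant had 7834 and 8401 normalised counts in knockout, and 8679 and 8387 in control. The 9 ranged from -0.11 to 0.01 in log2 fold change, and the edgeR adjusted p was 0.707 or more. The 6 Myh6 regions listed with Myh6 itself ranged from -0.02 to 0.21. The regions listed with Mir208a held 3.09% and 2.58% of the table's counts in knockout, and 2.59% and 2.82% in control, and these counts lie over Myh6 and not over the microRNA as the table gives overlaps.

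The 7 Ttn regions listed with Gm13938 ranged from -0.13 to 0.18, and 15 further Ttn regions, whose rows include their listed gene, from -0.26 to 0.21. The 6 Atp2a2 regions listed with Gm15846 or Gm43359 ranged from -0.10 to 0.45, with 1 past the test, and the Atp2a2 region listed with Atp2a2 stood at -0.30. Eif4g2, a translation initiation factor gene, had 3 regions listed with the small nucleolar RNA gene Gm23262, from -0.17 to 0.44 (edgeR adjusted p of 0.264 or more). The highest of them passed without control replicate 1 (0.82, adjusted p = 0.0184). For 16 genes the table held both kinds of region, and in 6 of the 16 the medians of both kinds had the same sign.

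**Figure D4:**
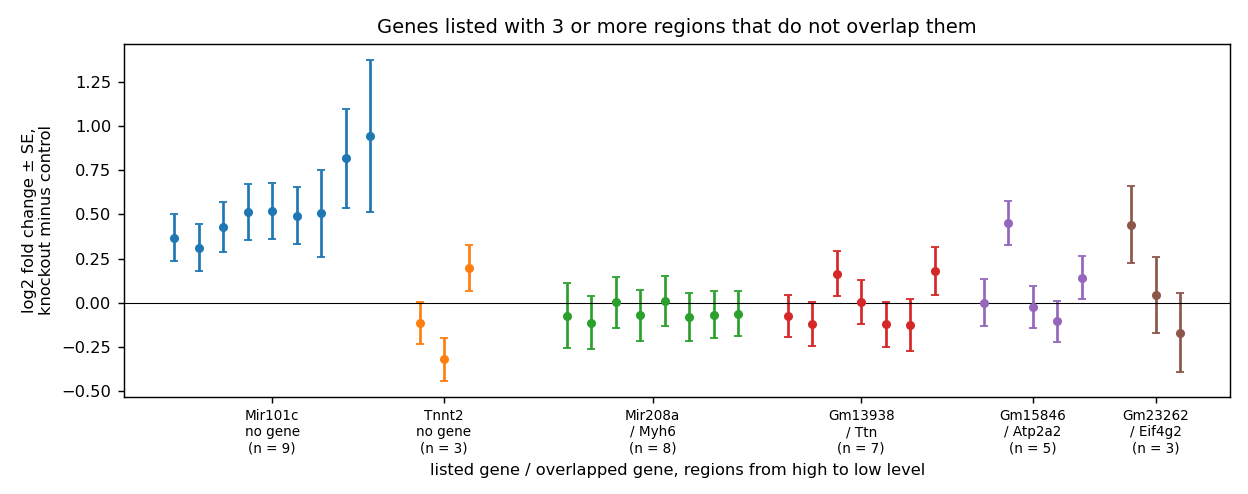
Fitted log2 fold change of knockout against control with its SE for each region of the 6 genes listed with at least 3 regions that do not overlap them, from high to low level. The 9 Mir101c regions lie between 0.31 and 0.94, the 8 Mir208a regions between -0.11 and 0.01, and 1 Gm15846 region passed the test.

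Of the heart gene lists, the sarcomere list met 25 of the 250 regions, from 8 genes. Of these 1 was higher, over Tpm1, and 0 were lower, with a median of -0.07 against -0.0082 for all 57 regions of the list. The calcium handling and dyad list met 11 regions, of which 1 was higher, over Atp2a2, with a median of 0.10 against 0.0017 for all 19. Its other members included Ryr2, the calcium release channel gene, and Srl, which encodes sarcalumenin. The citrate cycle list met 5 regions, over Ogdh, Idh2, Sdha, Sdhc and Got2, of which 0 passed by edgeR, with a median of 0.16 against 0.23 for all 12 regions of the list, and 5 of 5 fitted values above 0. Of all regions 3.94% passed, their median was 0.0094, and 51.4% of their fitted values were above 0. The Got2 region, over a mitochondrial aspartate transaminase gene, had 224 and 298 normalised counts in knockout, and 171 and 208 in control (0.44 ± 0.18, edgeR adjusted p = 0.166).

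Of 3 regions over fatty acid and ketone oxidation genes 1 was higher, over Oxct1, while Acadm, a medium-chain acyl-CoA dehydrogenase gene, stood at 0.27 ± 0.19 and Hadha at -0.09 ± 0.20. Among all regions 2.33% were higher by the same test. Of 5 regions over nuclear oxidative phosphorylation genes 0 passed and 3 had fitted values above 0. Their median was 0.31 against 0.056 for all 20 regions of the list. The largest fitted value of the 5 was 0.63, over Ndufs1, a complex I subunit gene, and Ino80dos. The list of heat shock genes met 4 regions, of which 1 was higher, over Hspb6 and Lin37. Their median was 0.28 against -0.064 for all 9 regions of the list. The region over Hspa9, listed with Gm22200, stood at -0.11 ± 0.23 (edgeR adjusted p = 0.825). The list also met Hspg2, which encodes the basement membrane protein perlecan and is no heat shock gene (0.27 ± 0.30). The region over Cryab, another small heat shock protein gene, was listed with Hspb2 and had 506 and 433 normalised counts in knockout, and 404 and 373 in control (0.28 ± 0.14, edgeR adjusted p = 0.264). The 3 regions over Malat1 and Neat1, both nuclear long noncoding RNAs, had fitted values of -0.31, -0.36 and -0.26, and did not pass. Both knockout libraries lay below both controls in each, against 22.2% of all regions. Both Neat1 regions were listed with Gm55523. The median of these 3 was -0.31, against -0.25 for all 13 regions of the nuclear noncoding RNA list. Rpl41 was the only ribosomal protein gene met (-0.22 ± 0.36), and the list of mitochondrially encoded genes met none of the 250 regions.

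Regions listed with the other microRNAs had fitted values of both signs, and none passed with all 4 libraries. The largest fitted values were 1.18 ± 0.43 for the region over Cyfip2 listed with Mir7239 (71.5 and 62.7 normalised counts in knockout, against 19.4 and 39.3 in control) and 1.04 ± 0.35 for the region over Ank listed with Mir7117, which passed without knockout replicate 2 (1.35, edgeR adjusted p = 0.0213). The Cd74 region, listed with Mir5107, had 103 and 103 normalised counts in knockout, and 48.5 and 84.4 in control (0.62 ± 0.28, edgeR adjusted p = 0.209). Cd74 encodes the invariant chain of antigen presentation. The Pde4dip region listed with Mir7225 stood at -0.47 ± 0.18 (adjusted p = 0.136), and those over Kif1c, Akt1 and Saraf between -0.0058 and 0.19. Mir6356 was listed with a region outside any gene of 6521 and 9794 normalised counts in knockout, and 9863 and 8859 in control (-0.20 ± 0.20), and it passed as lower without knockout replicate 2 (-0.52, edgeR adjusted p = 0.0187). The only region listed with a Snor symbol, Snora7a, overlapped Cand2 and had 20.2 and 34.5 normalised counts in knockout, and 53.3 and 55.3 in control (-1.03 ± 0.51, edgeR adjusted p = 0.263).

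The largest fitted values of the class over another gene belonged to regions with few counts. The Rab18 region listed with Gm50081 had 32 and 14 counts in knockout and 6 and 2 in control (2.05 ± 1.03, edgeR adjusted p = 0.276). The Abcc9 region listed with Kcnj8 had 52 and 39 counts in knockout and 4 and 18 in control (1.68 ± 0.59, edgeR adjusted p = 0.108). Abcc9 and Kcnj8 encode the subunits of the vascular ATP-sensitive potassium channel. The Rab2a region listed with Gm11809 had 37 and 12 counts in knockout and 4 and 8 in control (1.55 ± 0.91). Both knockout libraries lay above both controls in these 3, against 25.3% of all regions. The standard errors of these 3 are too large for a call.

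By class, the median log2 fold change was 0.05 for regions without a gene, 0.08 for regions over another gene and -0.02 for regions over their listed gene. Both knockout libraries lay above both controls in 30.8%, 27.6% and 22.7% of these classes, against 25.3% of all regions, and below both in 10.8%, 15.7% and 28.6%, against 22.2%. The class without a gene includes the 9 Mir101c regions, all with fitted values above 0. Its 50 regions whose listed gene starts beyond the first 5 Mb had a median of -0.015, with 25 above 0. Both knockout libraries lay above both controls in 11 of these 50. The 6 regions within the first 5 Mb that are not listed with Mir101c had a median of -0.15, with 1 above 0. The differences between classes were not tested, since regions are not replicates. In the fits without 1 library, the median over another gene ranged from -0.0085 to 0.17. Fitted values differed between the lowest and the highest levels, but not in steady steps between them. Among regions with a mean count under 50, 71.4% of 70 regions over another gene and 51.8% of 83 over their listed gene had fitted values above 0. Among regions with a mean count of 500 or more it was 32.3% of 31 without a gene, 31.0% of 29 over another gene and 37.3% of 51 over their listed gene. At a mean count of 200 to 500 it was 77.8% of 9, 63.2% of 19 and 53.2% of 47, in the same order. The part of level in the difference between classes was not tested.

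**Figure D5:**
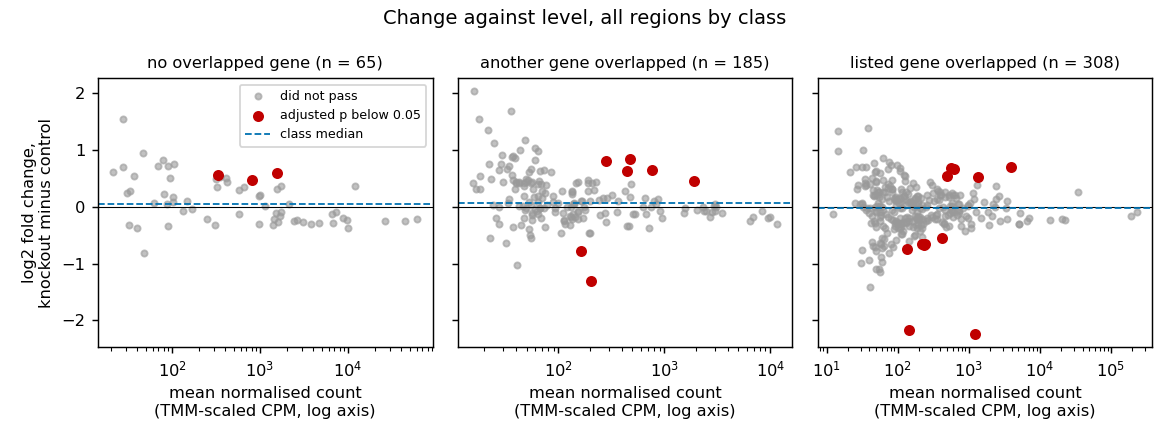
Fitted log2 fold change of knockout against control over the mean normalised count (log axis) for each region, in 3 panels by class; red points passed the test and the dashed line is the class median. Regions past the test number 3, 7 and 12, and the class medians are 0.05, 0.08 and -0.02.

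The authors' deposited table carries a comparison of its own, whose log2 fold change is positive where control is higher. In the authors' deposited table, 60 of the 250 regions had a p-value below 0.05, or 24%, against 27.2% of all regions. Of these 60, 57 were given as higher in knockout, against 135 of 152 among all regions. Whatever the p-value, the authors' deposited table gave 80.8% of the 250 and 76.9% of all regions as higher in knockout. The smallest q-value among the 250 in the authors' deposited table was 0.753. Of the 10 regions past edgeR's test, 8 had the same direction there, against 183 of the 250 and 396 of all 558 regions. The exceptions were the region listed with Gm18604, which the authors' deposited table gave as higher in control with a p-value of 0.0962, and the Pink1 region, with a p-value of 0.879. Both comparisons use the same 4 libraries.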

How the data were processed

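RNA from ac4C pulldown of mouse hearts was sequenced in 2 NAT10 knockout and 2 control libraries depleted of ribosomal RNA, per the labels' protocols. FastQC, Salmon and mm10 appear in the submitters' processing notes, without roles. The sources used here do not name the region caller or the counter, or say whether strand was used. The authors deposited whole-number counts per region with no normalisation, and, per the file headers, a log2 fold change, p-value and q-value of their own comparison. Of 652 rows, 94 repeats of a region were removed, leaving 558 regions. Classes came from gene names. Members and lists were chosen with earlier results of these data known.

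The test was edgeR's quasi-likelihood test (version 4.0.16, R 4.3.3) after TMM scaling, with robust dispersions. Its filter on low counts removed 0 regions. Benjamini-Hochberg adjustment ran over all regions, at a threshold of 0.05. The standard error is the log2 fold change divided by the root of its F. Levels are TMM-scaled CPM over the table. The sums are of tabled regions and are not sequencing depths. Below 200 counts, 75% to 92.3% of the values of both classes per library were even; the origin of this is not given, and halved counts were an alternative. Replicates differed beyond counting noise (chi-square per degree of freedom 16.6 in knockout and 5.03 in control over the 250 regions). P-values measure the spread between these samples, which may be technical. The fit was tested on simulated data. Alternatives were other scalings, filters, DESeq2 1.42.0, halved counts, a replicate block and leaving out each library.

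Regions to be named were those past the test, the 6 most abundant and the 3 with the largest and smallest change of each class, genes with at least 3 regions, up to 4 of each gene list, and microRNA or small nucleolar RNA names. Not each of them is printed above. Gm56139, Gm56141, the second Gm13806 region and the heart genes listed without overlap were added after their values were seen.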

Additional observations from a re-analysis of the deposited data

How the results depend on the processing

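Counts past the test moved with scaling, tool and library. The 10 called regions changed sign under none of 14 alternatives. In each of them the groups do not overlap, so a change of sign was unlikely, and the stable sign is no separate support. Of all regions 22 passed as reported, and of the 250 whose listed gene is not overlapped 10 did. With library totals alone the counts were 8 for all, 4 for the 250 and 2 over another gene, and the median log2 fold change of all regions shifted by 0.14, with class medians of 0.21 over another gene and 0.12 over the listed gene. With upper-quartile factors the median over the listed gene was -0.049. With the DESeq2 Wald test the counts were 7, 3, 0 without a gene and 3 over another gene. With a mean count of at least 50 they were 16 of the 250 and 9 without a gene. Leaving out 1 library gave 13 to 37 for all, 5 to 23 for the 250 (without knockout replicate 2, 7 higher and 16 lower), 0 to 13 without a gene and 5 to 10 over another gene. The median over the listed gene ranged from -0.046 to -0.012, that over another gene from -0.0085 to 0.17 and that without a gene from 0.03 to 0.08. The share over another gene differed by -0.51 (without knockout replicate 1) to 1.16 percentage points, and that without a gene by -1.77 to -0.11. With the replicate block 1 of all regions, 0 of the 250, 0 without a gene and 0 over another gene passed (74, 32, 11 and 21 at an unadjusted p below 0.05). The numbers do not pair the libraries by the labels, and same-numbered libraries deviated with a correlation of -0.16. The crossed replicate block, added after seeing the data, gave 42 for all, 23 for the 250 and 13 without a gene. Removing the rRNA regions from the fit, also added later, left 10 of the 250. Leaving out the region listed with Myl12b, whose overlapped identifier carries that symbol in GENCODE M21, left 10. The causes were not tested.

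With 2 libraries a group, the fits without 1 library assume that the lone sample varies like the other group. Among regions with a mean count under 50, 11 without a gene and 70 over another gene, 0 passed by edgeR.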
